A study of Drosophila melanogaster with 216 samples.

Results

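Ilp8 (Insulin-like peptide 8, older symbol CG14059) encodes a secreted peptide of the insulin and relaxin superfamily of Drosophila melanogaster. On the Affymetrix array used here the gene is read by 1 probe set, the only one that the platform annotation pairs with it, out of 18769 probe sets and 11982 genes with a probe set of their own. The gene was chosen by its log2 differences between diets, ages and sexes in these same arrays, so its levels and differences are given as a description, with their spread over arrays and no test. Expression was measured on 216 arrays, each from 5 whole virgin flies of a laboratory stock population, in 54 groups of 4 arrays. The groups cross sex, 3 ages, 3 larval diets and the same 3 adult diets. The standard sugar-yeast food is called 1SY. In 0.25SY both sugar and yeast are cut to 0.25 of the standard, and 2.5SY holds them at 2.5 times the standard. The ages are day 1 after emergence, middle age, when 10% of the cohort on that diet combination had died, and old age, when 90% had died. Because middle and old age are set by mortality, flies of different diet groups at the same age label need not have lived the same number of days. All flies, controls included, came from the same laboratory stock.

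In larvae, Ilp8 is known as a distress signal of growing tissue. Damaged or overgrowing imaginal discs release the peptide, which acts through the relaxin-type receptor Lgr3 in the brain to hold back ecdysone synthesis and pupariation. In adult females the gene is known to be expressed in the ovary, in follicle cells of mature egg chambers, where it takes part in ovulation. Sequences and genome positions are not shown here.

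Ilp8 was far higher in females than in males. Values below are the deposited log2 values, on which a difference of 1 means a doubling. Over all ages and diets, Ilp8 lay at 6.33 to 10.73 with a median of 9.38 in 108 female arrays, against 5.36 to 9.19 with a median of 6.01 in 108 male arrays. Females were higher than males by 2.96 ± 0.10 on day 1, 3.07 ± 0.10 in middle age and 3.52 ± 0.10 in old age. Each is a log2 difference ± SE from 36 arrays a sex, with the residual pooled over all 54 groups. These differences were higher than those of 97.3%, 98.6% and 99.0% of all probe sets at the 3 ages. The methods describe a normalisation of each sex apart, and the array medians lay at 6.64 to 6.96 in females and at 7.03 to 7.42 in 105 of the 108 male arrays. The other 3 male arrays, described below, had medians of 6.76 to 7.38. Centring every array on its own median put the female excess of Ilp8 at 3.42 on day 1, 3.55 in middle age and 4.07 in old age. In these bulk samples, fewer cells of a type and less RNA per cell cannot be told apart.

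The male level varied little with age. Leaving out 3 old male arrays described next, it ran over 5.36, 5.80 and 6.36 on day 1, 5.75, 6.03 and 6.36 in middle age and 5.57, 6.07 and 6.52 in old age (lowest, median and highest of 36, 36 and 33 arrays). No detection calls come with the values, so whether the male signal stands above background is unknown, and no fold of the female over the male level is given.

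**Figure D1:**
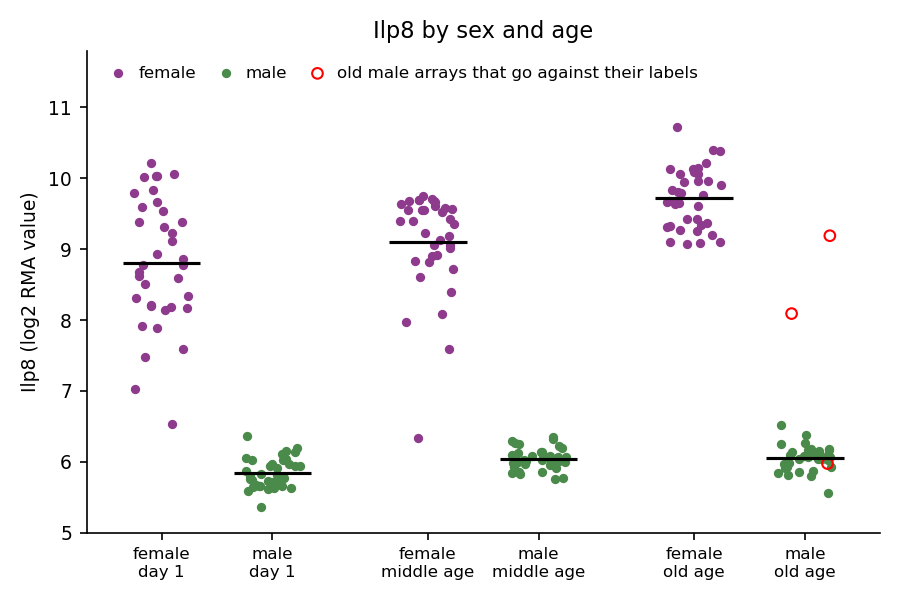
Ilp8 (log2 value, vertical axis) in every array of the 6 combinations of sex and age, with black bars at the mean, in old males without the arrays circled in red. All but 2 of the female arrays lie above 7, the exceptions being at 6.33 and 6.53, and the male arrays lie near 6, apart from 2 of the 3 red circles, which mark old male arrays whose profile goes against their label.

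The 3 old male arrays go against their labels in genes other than Ilp8. One, labelled replicate 1 of old males raised on 0.25SY and kept on 2.5SY, averaged 12.09 for 10 chorion genes, 10.88 for 14 female germline genes and 5.43 for 10 testis genes. Its profile was closest to a group of old females. Its Ilp8 value was 9.19. Another, labelled replicate 1 of old males raised on 1SY and kept on 0.25SY, averaged 9.97 for the germline genes beside 11.06 for the testis genes, with Ilp8 at 8.09. The third, labelled replicate 3 of old males raised on 0.25SY and kept on 1SY, was closest to a group of males on day 1 and had Ilp8 at 5.98. In the other 105 male arrays the female germline mean lay at 6.08 to 7.02 and the testis mean at 11.76 to 13.02. Without the 3 arrays the female excess of Ilp8 in old age was 3.67, and the SD of Ilp8 within male groups was 0.17 rather than 0.40.

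Among the factors of the design, the interaction of larval diet with age and age itself took the largest shares of the variation of Ilp8 in females. Of the sum of squares over the 108 female arrays, larval diet by age took 25.5%, age 22.6%, larval diet 9.54%, adult diet by age 7.54% and adult diet 4.66%, and 26.1% lay between arrays of a group. The median over all probe sets was 3.87% for larval diet by age, 12.5% for age and 1.82% for larval diet. Of all probe sets, 99.9% had a smaller share than Ilp8 for larval diet by age and 70.0% for age. For adult diet the share of Ilp8 was near the median over all probe sets of 5.42%. With middle and old age alone, larval diet by age took 2.83% of the variation of Ilp8 and adult diet took 18.6%. In males 70.1% of the variation of Ilp8 lay between arrays of a group, with the 3 arrays that go against their labels included. The SD within male groups was 0.40 with them and 0.17 without them, and the share without them was not computed.

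On day 1, females raised on 0.25SY had the lowest Ilp8 and those raised on 1SY the highest, whatever the adult diet. Among females raised on 0.25SY the 4 arrays read 7.89, 8.14, 7.92 and 8.51 on adult 0.25SY, 7.48, 7.59, 7.03 and 8.19 on adult 1SY, and 8.60, 8.35, 8.20 and 6.53 on adult 2.5SY. Females raised on 1SY read 9.60, 9.39, 10.02 and 9.83 on adult 0.25SY, 10.03, 10.05, 9.79 and 10.21 on adult 1SY, and 10.03, 9.31, 9.67 and 9.11 on adult 2.5SY. All 12 arrays of larval 0.25SY, at 6.53 to 8.60, lay below all 12 arrays of larval 1SY, at 9.11 to 10.21. Females raised on 2.5SY read 8.78, 8.87, 8.68 and 8.94 on adult 0.25SY, 9.38, 8.78, 8.62 and 8.31 on adult 1SY, and 8.18, 9.54, 9.23 and 8.21 on adult 2.5SY. They stood between the other larval diets, with 9 of 12 arrays below every larval 1SY array.

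**Figure D2:**
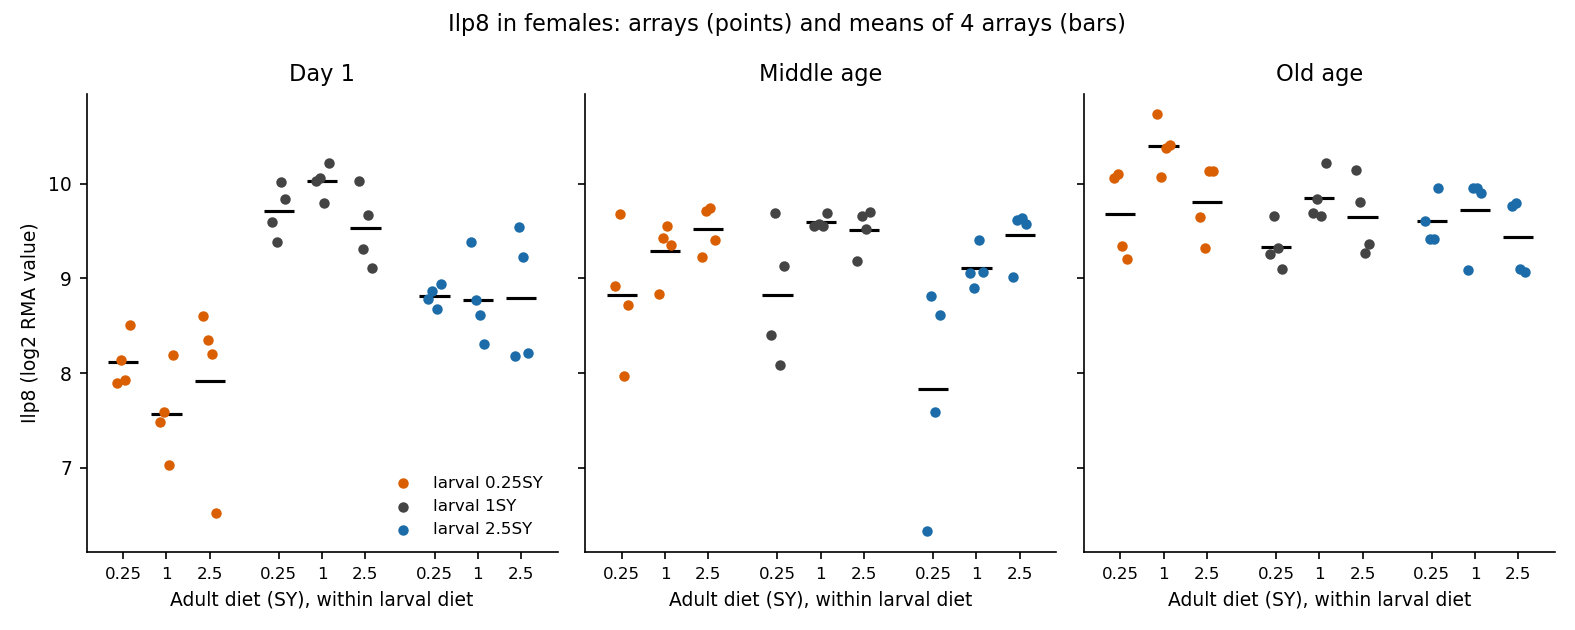
Ilp8 (log2 value) in each female array on day 1, in middle age and in old age. Within a panel the 9 columns are the adult diets (0.25, 1 and 2.5SY) within each larval diet, marked by colour, and the black bars are means of 4 arrays. The larval diets separate on day 1, adult 0.25SY spreads to low values in middle age, and all old females lie between 9.07 and 10.73.

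Averaged over adult diets, Ilp8 on day 1 was at 7.87 ± 0.62 after larval 0.25SY and 9.75 ± 0.34 after larval 1SY (SD, n = 12 each). The difference of -1.88 ± 0.19 (SE) is a 3.69-fold lower level. The larval 2.5SY females averaged 8.79 ± 0.44 (SD, n = 12), which is 0.96 below larval 1SY (-0.96 ± 0.19), or 1.95-fold lower. By size the first difference exceeded 99.97% and the second 99.98% of those of all probe sets. The genes with a lower difference after larval 0.25SY were Fbp2 (-2.50), Obp99b (-2.14) and Fbp1 (-2.02), and after larval 2.5SY only Fbp2 (-1.13), all named after their values were seen. Fbp1 and Fbp2 are genes of the larval fat body and Obp99b encodes an odorant-binding protein. Without the lowest day 1 array (larval 0.25SY, adult 2.5SY, replicate 4, at 6.53), the larval 0.25SY difference of Ilp8 was -1.73. Between females of the same adult diet the larval 0.25SY difference was -1.59 on adult 0.25SY, -2.45 on adult 1SY and -1.61 on adult 2.5SY, each ± 0.33 (SE, 4 arrays against 4) and each with no overlap of arrays.

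At the later ages the larval diet groups lay closer together. In middle age, larval 0.25SY and larval 1SY females averaged 9.21 ± 0.52 and 9.31 ± 0.54 (SD, n = 12 each), a difference of -0.10 ± 0.19 (SE). Larval 2.5SY females averaged 8.80 ± 0.96, a difference from larval 1SY of -0.51 ± 0.19 that was -0.34 without a single array (adult 0.25SY, replicate 1, at 6.33). In old age the larval 0.25SY females were on the high side, at 9.96 ± 0.48, against 9.61 ± 0.36 for larval 1SY (difference 0.35 ± 0.19). Old larval 2.5SY females averaged 9.59 ± 0.36, which is within the SE of the larval 1SY level (difference -0.02 ± 0.19). The change of the larval diet difference with age was itself not tested, since the gene was chosen with it known.

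Averaged over larval diets, the adult diet groups, in contrast, were level on day 1, and some were apart later. On day 1 after emergence the adult 0.25SY difference of Ilp8 was 0.09 ± 0.19 and the adult 2.5SY difference -0.04 ± 0.19, both within the SE, and the second was 0.11 without the array at 6.53. Within larval diets these 2 differences were 0.54 and 0.35 after larval 0.25SY, -0.31 and -0.49 after 1SY, and 0.04 and 0.02 after 2.5SY. Each had an SE of 0.33 and overlapping arrays. In middle age, females on adult 0.25SY had less Ilp8. Those raised on 0.25SY read 8.92, 9.68, 7.97 and 8.72 on adult 0.25SY, against 8.84, 9.42, 9.56 and 9.35 on adult 1SY. Those raised on 1SY read 8.40, 9.69, 8.09 and 9.13 on adult 0.25SY, against 9.55, 9.58, 9.55 and 9.69 on adult 1SY. The lowest and most scattered were females raised on 2.5SY, at 6.33, 8.82, 7.59 and 8.61 on adult 0.25SY, against 9.06, 8.90, 9.40 and 9.06 on adult 1SY. Of the 12 adult 0.25SY arrays 8 lay below every adult 1SY array and 1 lay above them all. The averages were 8.50 ± 0.93 on adult 0.25SY and 9.33 ± 0.29 on adult 1SY (SD, n = 12 each), a difference of -0.83 ± 0.19 (SE), or 1.78-fold lower. Without the array at 6.33 the difference was -0.67.

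On adult 2.5SY the middle-aged females were close to those on adult 1SY. They read 9.22, 9.71, 9.75 and 9.40 after larval 0.25SY, 9.18, 9.66, 9.52 and 9.70 after larval 1SY, and 9.02, 9.61, 9.63 and 9.57 after larval 2.5SY. Their average of 9.50 ± 0.24 differed from that on adult 1SY by 0.17 ± 0.19 (SE).

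In old females Ilp8 was highest on adult 1SY, although the arrays of the 3 adult diets overlapped. Females raised on 0.25SY read 10.06, 10.10, 9.34 and 9.21 on adult 0.25SY, 10.73, 10.07, 10.38 and 10.40 on adult 1SY, and 9.64, 9.32, 10.13 and 10.13 on adult 2.5SY. Females raised on 1SY read 9.26, 9.66, 9.32 and 9.10 on adult 0.25SY, 9.69, 9.84, 9.66 and 10.22 on adult 1SY, and 10.15, 9.80, 9.26 and 9.37 on adult 2.5SY. Females raised on 2.5SY read 9.61, 9.42, 9.42 and 9.96 on adult 0.25SY, 9.09, 9.96, 9.95 and 9.90 on adult 1SY, and 9.77, 9.80, 9.10 and 9.07 on adult 2.5SY. The differences from adult 1SY were -0.45 ± 0.19 on adult 0.25SY and -0.36 ± 0.19 on adult 2.5SY (SE). In all 6 comparisons within a larval diet the mean was lower than on adult 1SY, by 0.12 to 0.72, and none was free of overlap. The adult 0.25SY difference was smaller in old than in middle-aged females by 0.38 ± 0.27, or by 0.21 without the array at 6.33, and that of adult 2.5SY was displaced by -0.53 ± 0.27.

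The average of Ilp8 in females was higher and its spread narrower at each later age. It was 8.81 ± 0.91 on day 1, 9.11 ± 0.72 in middle age and 9.72 ± 0.43 in old age (SD, n = 36 each). The middle-aged females were 0.30 ± 0.11 above those of day 1, and the old ones 0.61 ± 0.11 above the middle-aged (SE), or 1.53-fold. The first of these differences ran both ways within the diets. On the same larval and adult diet, middle-aged females raised on 0.25SY were above those of day 1 by 0.71, 1.72 and 1.60 on adult 0.25SY, 1SY and 2.5SY, whereas those raised on 1SY differed by -0.88, -0.43 and -0.02. Old females were above middle-aged ones in 8 of 9 diet combinations, the largest difference being 1.76 for larval 2.5SY, adult 0.25SY. Ordered by mean, the 27 female groups ran between 7.57 (day 1, larval 0.25SY, adult 1SY) and 10.40 (old age, larval 0.25SY, adult 1SY). The SE of a difference of 2 groups was 0.33, and only 2 of 26 neighbouring pairs in this order were further apart: those on either side of the gap between 8.12 and 8.77, which sets off the 4 lowest groups, and the highest pair.

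In males no diet or age difference of Ilp8, averaged over the other factors, reached 0.3 in size on day 1, in middle age or between ages. Within single diet combinations the arrays did not overlap for adult 2.5SY on day 1 after larval 2.5SY (0.34), nor for middle age over day 1 in 3 of 9 combinations (0.26 to 0.38). Between the ages the male differences were 0.20 ± 0.09 for middle age over day 1 and 0.15 ± 0.09 for old over middle age (SE), and the second was 0.07 without the female-like array. On day 1 the larval diet differences in males were -0.10 ± 0.16 after 0.25SY and 0.06 ± 0.16 after 2.5SY. Male values in old age rest on the arrays that go against their labels: the larval 2.5SY difference was -0.28 ± 0.16 with them and -0.10 without them. All male SEs, also those of day 1 and of middle age over day 1, come from a residual that includes these arrays. The SD within male groups was 0.40 with them and 0.17 without them, so these SEs overstate the spread of the other arrays.

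The ovary genes did not share one pattern with Ilp8. Lists of marker genes were read from the same fit with limma's moderated test and Benjamini-Hochberg adjustment over all probe sets (threshold 0.05). After larval 0.25SY on day 1, 7 of 14 female germline genes fell and 1 rose, where 22.8% of all probe sets fell and 18.4% rose, and the list had a median of -0.41 (all probe sets -0.02). Those with the largest differences were vas, which encodes the germ cell helicase Vasa (-0.57, adjusted p = 6.5e-06), bcd, the anterior determinant (-0.55, adjusted p = 0.023), png, a kinase of the egg-to-embryo transition (-0.55, adjusted p = 0.00023), and exu, needed to localise bcd mRNA (-0.52, adjusted p = 0.015). The call of bcd was lost without replicate 2, 3 or 4, and that of exu without replicate 2 or 3. Per array, the mean of the 14 genes lay at 10.82 to 11.15 after larval 0.25SY and at 11.20 to 11.39 after larval 1SY, with no overlap, as for Ilp8. The part of this shift in the Ilp8 difference was not tested. The lowest difference of a germline gene was -0.57, beside -1.88 for Ilp8.

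The chorion genes had a median near that of the germline list but no calls. None of 10 chorion genes, which encode the outer eggshell made by late follicle cells, passed in that comparison with limma (median -0.45), and none of 3 yolk protein genes did. At an unadjusted p under 0.05 the count was also 0 for both lists, as it was with an ordinary test without moderation. Among 11 vitelline membrane genes, of the inner eggshell layer, pip and tsl rose (0.63 and 0.36), where 18.4% of all probe sets rose and 22.8% fell. The call of pip was lost when its probe sets were averaged. Markers of other tissues moved in the same comparison, beside the same shares of all probe sets. Of 4 muscle markers 2 rose (median 0.46), both eye markers rose (median 0.63) and 2 of 5 gut markers rose (median 0.17), with none falling. Their part in the Ilp8 difference was not tested.

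Of 9 genes of mature follicles and ovulation on day 1, 3 fell and 2 rose after larval 0.25SY, shares near those of all probe sets (22.8% fell and 18.4% rose). Nox, which encodes an NADPH oxidase needed for ovulation, had the largest difference (-0.86, adjusted p = 6.2e-11), and Timp, the inhibitor of matrix metalloproteinases, rose by 0.46 (adjusted p = 4.2e-06). After larval 2.5SY, Nox fell too (-0.45, adjusted p = 0.005), the only one of the 9 to pass, where 5.71% of all probe sets fell and 3.37% rose. This call was lost without the arrays of replicate 1 or of replicate 3. None of the 14 germline genes and none of the 10 chorion genes passed in that comparison (medians -0.16 and 0.08). At an unadjusted p under 0.05 the limma counts were 2 germline genes and 0 chorion genes, and no gene of either list passed the ordinary test. Of the muscle markers 1 rose there, and no eye or gut marker passed.

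Elsewhere the larval diets left the ovary genes without a call. Of the 47 genes of the chorion, vitelline membrane, yolk, germline and mature follicle lists, none passed with limma for larval 0.25SY or 2.5SY in middle age, where 0.0266% and 0.0107% of all probe sets passed in either direction. None passed in old age, where 0% and 0% of probe sets did. At an unadjusted p under 0.05 by limma, the counts were 4 of the 47 genes for larval 0.25SY and 18 for larval 2.5SY in middle age, and 1 and 0 in old age. The share of all probe sets at an unadjusted p under 0.05 was not counted. These counts, whose direction is not given, therefore cannot be set against the adjusted shares. For adult 0.25SY and 2.5SY on day 1 none of the 47 passed the adjusted threshold, where 1.94% and 0.362% of all probe sets did. At an unadjusted p under 0.05 the counts of the 47 were 2 and 0. The ordinary test called none in these 6 comparisons.

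**Figure D3:**
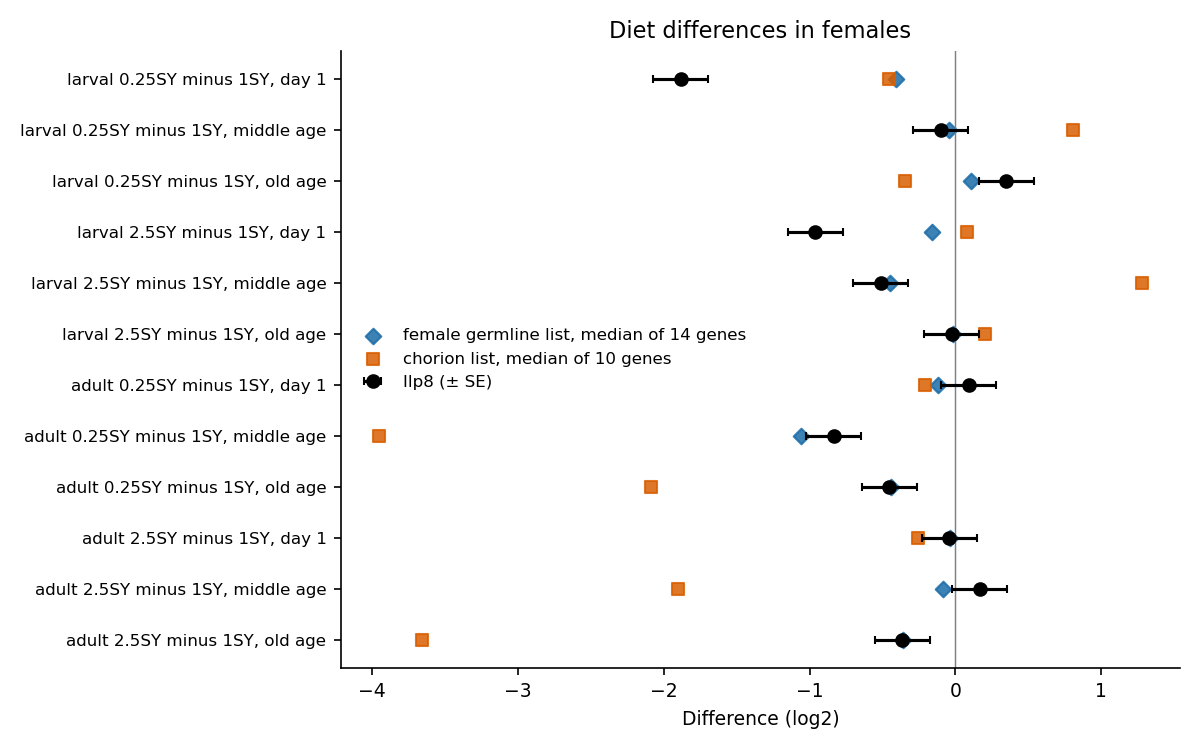
Differences of each larval and adult diet from 1SY in females at the 3 ages (log2, horizontal axis), with Ilp8 as black points with SE bars and the medians of the germline and chorion lists as coloured symbols. Ilp8 stands apart from both lists on day 1 after larval 0.25SY and 2.5SY, whereas the chorion median lies far below Ilp8 for adult 0.25SY in middle age and for adult 2.5SY in old age.

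Under adult diet the eggshell genes had differences far larger than that of Ilp8. In middle-aged females on adult 0.25SY all 10 chorion genes fell, where 26.2% of probe sets fell and 24% rose, with a median of -3.95 and the lowest value for Cp36 (-5.06, adjusted p = 9.8e-08). Of 11 vitelline membrane genes 10 fell (median -2.15, with Vm32E at -3.91) and tsl rose (0.36), and there was a fall in all 3 yolk protein genes (Yp2 at -1.30) and in 13 of 14 germline genes (median -1.06), among them otu (-1.46, adjusted p = 9.2e-11) and plu (-1.40). The Ilp8 difference of -0.83 lay nearer to the germline median than to the chorion median. Of the 9 genes of mature follicles and ovulation 3 fell and 3 rose in the same comparison (median 0.01). Nox (-0.65), usp, the partner of the ecdysone receptor (-0.41), and ftz-f1, a nuclear receptor (-0.24), fell. Timp (0.41), shd, an enzyme of the ecdysone pathway (0.26), and peb (0.21) rose. The array with Ilp8 at 6.33 also had the lowest germline mean of all female arrays, at 7.26, and the next lowest Ilp8 value in that comparison (7.59) came with a germline mean of 9.52. The remaining 10 adult 0.25SY arrays had germline means of 10.13 to 11.09. All 4 muscle markers, both eye markers and 2 of 5 gut markers rose in this comparison (medians 0.88, 0.96 and 0.09), and their part in the Ilp8 difference was not tested.

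On adult 2.5SY in middle age, where Ilp8 differed by 0.17, 2 of 10 chorion genes fell, where 1.76% of probe sets fell and 3.45% rose. They were Cp18 (-2.82, adjusted p = 0.022) and Cp7Fc (-2.38, adjusted p = 0.022), and the list had a median of -1.90. None of the 14 germline genes passed with limma or with the ordinary test, and none at an unadjusted p under 0.05 (median -0.08).

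In old females too the chorion genes had larger differences than Ilp8. On adult 2.5SY all 10 chorion genes fell with a median of -3.66 (Cp19 at -5.08), where 18.7% of probe sets fell and 16.1% rose, and Ilp8 differed by -0.36. On adult 0.25SY 9 of 10 chorion genes fell with a median of -2.09, where 24.2% of probe sets fell and 17.8% rose. The germline medians in these comparisons, at -0.36 and -0.44, lay beside Ilp8 differences of -0.36 and -0.45. Of the 14 germline genes 6 fell on adult 2.5SY and 9 on adult 0.25SY, with none rising. Markers of other tissues moved here too, and their part was not tested. On adult 2.5SY all 4 muscle markers and both eye markers rose (medians 0.71 and 0.70), and of 5 gut markers 1 rose and 2 fell. On adult 0.25SY 1 muscle marker and both eye markers rose (medians 0.10 and 0.78), and of the gut markers 2 rose and 2 fell. Between middle and old age 11 of 14 germline genes rose and 1 fell, where 24.7% of probe sets rose and 21.3% fell (median 0.33). None of the 10 chorion genes passed there, with 1 at an unadjusted p under 0.05 by limma and none by the ordinary test. Against day 1, in middle age 12 germline genes and all 10 chorion genes fell (medians -0.46 and -2.96), where 35.3% of probe sets fell and 25.7% rose, although the average of Ilp8 was 0.30 higher. All 4 muscle markers fell in that comparison (median -2.19), 1 eye marker rose and 1 fell, and 4 of 5 gut markers rose and 1 fell. Their part was not tested.

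Across the 27 female group means the germline list mean had a Pearson correlation of 0.51 with Ilp8 (Spearman 0.48), and the chorion list mean one of -0.08 (Spearman -0.11). Without the 2 groups farthest from the median germline mean, the first was 0.34. Within each age, over 9 group means, the germline correlation was 0.92 on day 1, 0.94 in middle age and 0.79 in old age, and that of the chorion list was 0.58, 0.58 and 0.43. Without the group farthest from the median germline mean at each age, the germline values over 8 groups were 0.95, 0.77 and 0.77. Over the deviations of 108 arrays from their group means it was 0.66, and that of the chorion list -0.03. Other lists had correlations of like or larger size over the 27 groups, with 0.67 for mature follicles and ovulation, -0.71 for the eye markers, -0.58 for the muscle markers and -0.50 for the gut markers. By age the mature follicle list had 0.86 on day 1, 0.28 in middle age and -0.17 in old age, and the muscle markers had -0.96 on day 1. These points share arrays, flies and normalisation, and the values are descriptions.

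**Figure D4:**
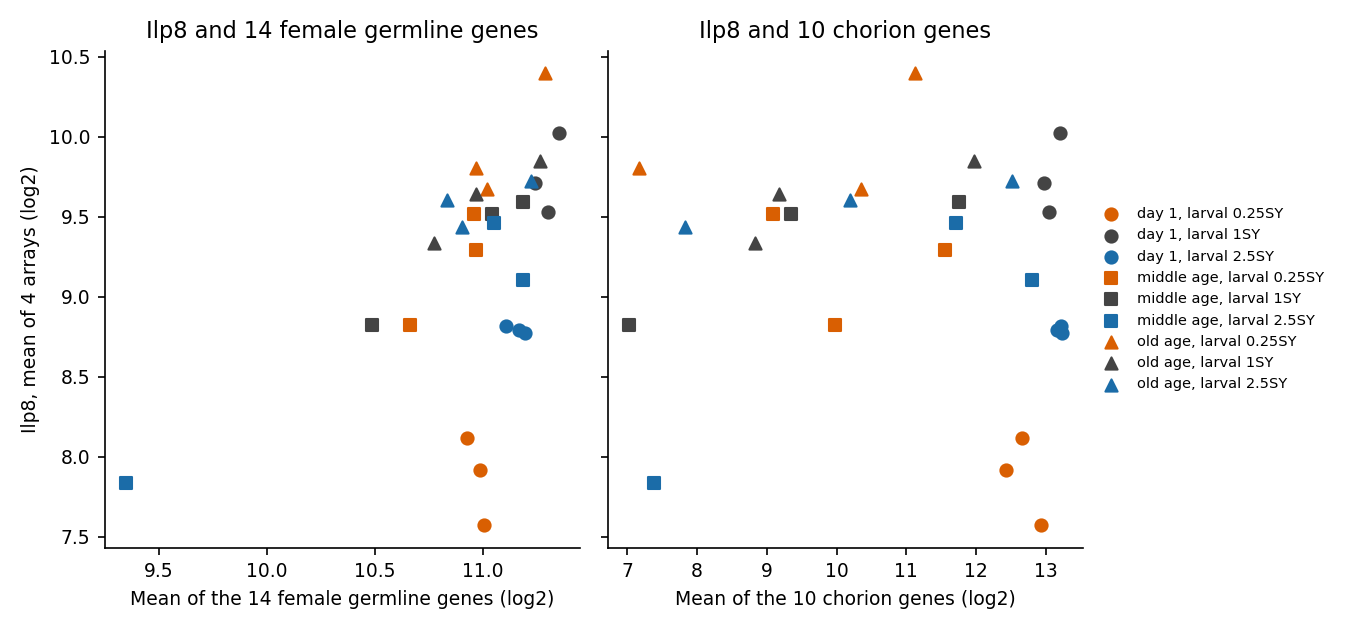
Mean Ilp8 of each female group (vertical axis, log2) against the mean of 14 germline genes (left) and of 10 chorion genes (right), with symbol shape for age and colour for larval diet. The 3 day 1 groups raised on 0.25SY lie low at germline means near 11, and the chorion means cover 7.03 to 13.2 with no common trend over all 27 groups.

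The genes whose female pattern was most like that of Ilp8 were sought among 10306 genes with a mean of at least 5. The 10 highest Pearson correlations over 27 group means were 0.95 for M1BP, 0.94 for Sry-delta and Dlip2, 0.94 for Tgi, 0.93 for CG11560, Tnpo-SR, CG8159 and HP1b, and 0.92 for bdwf and CG17598. M1BP and Sry-delta encode zinc finger proteins that bind DNA, HP1b a heterochromatin protein, Tnpo-SR an import receptor of splicing factors, and Tgi a cofactor that opposes the growth regulator Yorkie. Their changes were smaller than those of Ilp8: after larval 0.25SY on day 1 they ran between -0.62 (Dlip2) and -0.42 (HP1b). In all, 24 genes correlated above 0.9 and 414 above 0.8. The lowest correlations were those of LanB2, a laminin chain (-0.93), CG7990 (-0.91), SPoCk, a calcium pump (-0.90), Rab3, a synaptic vesicle GTPase (-0.89), and Calx, a sodium-calcium exchanger (-0.89). Over deviations within groups the 5 highest were CG12713, CG11403 (both 0.80), CG6479, mms4 (both 0.79) and spn-E (0.79), the last of which encodes a helicase of the germline piRNA pathway. The order among the highest correlations depended on day 1: over the 18 groups of middle and old age none of the 10 remained among the 10 highest. Over those 18 groups the same 10 genes still correlated with Ilp8 at 0.88 (bdwf) to 0.95 (HP1b).

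Ilp7, the other insulin-like peptide of relaxin type, differed with larval diet on day 1 in the same direction as Ilp8. Ilp7 averaged 5.98 over the female arrays, level with Ilp8 in males (5.98 without the 3 arrays that go against their labels). Whether Ilp7 stands above background is unknown. Its day 1 values ran over 4.73, 5.36 and 5.95 after larval 0.25SY, 5.99, 6.68 and 7.51 after larval 1SY, and 5.13, 6.20 and 6.61 after larval 2.5SY (lowest, median and highest of 12 arrays). As with Ilp8, all 12 larval 0.25SY arrays lay below all 12 larval 1SY arrays. Ilp7 fell after larval 0.25SY by 1.27 (adjusted p = 7.83e-10, limma) and after larval 2.5SY by 0.56 (adjusted p = 0.0215), the second call being lost without replicate 1, 3 or 4. In middle age its medians after the 3 larval diets lay at 5.73, 5.73 and 5.79. Ilp7 was also lower on adult 0.25SY in middle age (-0.47, adjusted p = 0.011, lost without replicate 3) and in old age (-0.44, adjusted p = 0.02, lost without replicate 1 or 2), and on adult 2.5SY in old age (-0.67, adjusted p = 0.00052). Averaged over all diets, Ilp7 was lower in middle age than on day 1 (-0.27, adjusted p = 0.0091, limma, lost without replicate 1) and Ilp8 higher (0.30). After larval 0.25SY both means were higher in middle age (Ilp7 5.41 to 5.76, Ilp8 7.87 to 9.21). After larval 1SY both were lower (Ilp7 6.68 to 5.85, Ilp8 9.75 to 9.31). After larval 2.5SY the Ilp7 mean was lower (6.12 to 5.80) and that of Ilp8 level (8.79 and 8.80). From middle to old age Ilp7 was higher (0.27, adjusted p = 0.013, limma, lost without replicate 1 or 3), as was Ilp8. The correlation of Ilp7 with Ilp8 over the 27 female groups was 0.68.

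Of the insulin-like peptides of the brain, Ilp2 moved the opposite way on day 1. Ilp2, made with Ilp5 in insulin-producing neurons, rose after larval 0.25SY on day 1 (0.42, adjusted p = 4.9e-06), while Ilp5 had a difference of 0.10 (adjusted p = 0.55). In middle-aged females Ilp2 was higher than on day 1 (0.38) and Ilp5 lower (-0.40), and both passed. Of the receptor and binding proteins, conv and ImpL2, which bind insulin-like peptides in circulation, rose after larval 0.25SY (0.41 and 0.25), the call of ImpL2 being lost in 3 of the alternatives. On adult 0.25SY in middle age InR, the insulin receptor, rose by 0.77 (adjusted p = 1.5e-13) and ImpL2 by 0.61, while Sdr, another secreted binding protein, fell (-0.22, adjusted p = 0.012) and conv did not pass (0.02).

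**Figure D5:**
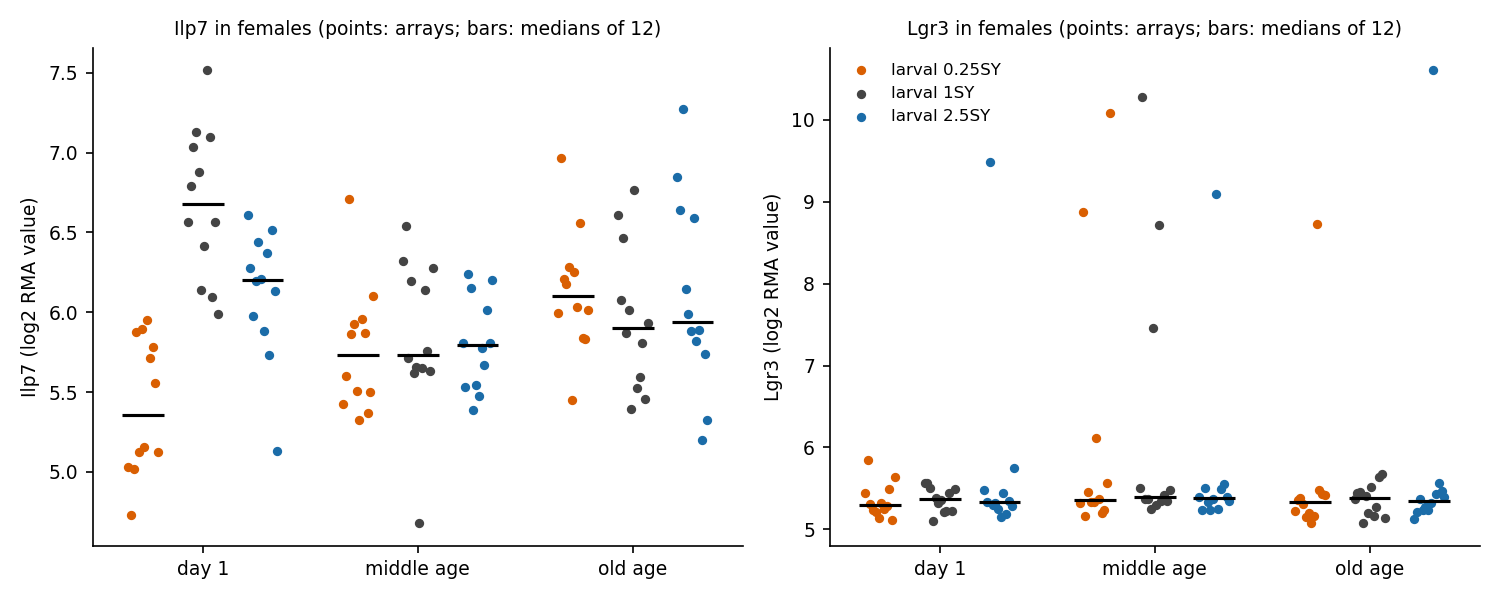
Ilp7 (left) and the receptor gene Lgr3 (right) in each female array by age and larval diet (log2 values), with black bars at the median of 12 arrays. Ilp7 follows the larval diets on day 1, whereas Lgr3 stays near 5.3 apart from 9 arrays at 7.46 to 10.61.

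Lgr3, the receptor of Ilp8 in larvae, was read as nearly constant in most arrays and as high in a few. A value of 7, chosen after the values were seen, separates 9 of 108 female arrays, at 7.46 to 10.61, against 12 of 108 male arrays, at 7.04 to 8.54. The other female arrays lay at 5.08 to 6.11 and the other male arrays at 4.78 to 6.86. The high female arrays came from 8 diet and age groups, and Ilp8 in them lay at 7.59 to 9.96, within the range of the other females. None of 16 contrasts of Lgr3 passed in females with limma or with the ordinary test, with 1 at an unadjusted p under 0.05, and its difference after larval 0.25SY on day 1 was -0.01 (adjusted p = 0.99). Lgr4, a second receptor of the relaxin class, passed in only 1 female contrast, adult 0.25SY in middle age (0.21, adjusted p = 0.023), and lost that call in 5 of the alternatives. Its medians at the 3 ages were 5.31, 5.32 and 5.33 in females, against 5.02, 4.97 and 4.96 in males.

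Of 8 genes that act upstream of Ilp8 in larval discs, 4 rose and 2 fell after larval 0.25SY on day 1, where 18.4% of all probe sets rose and 22.8% fell. Those that rose were kay (0.51, adjusted p = 6.2e-07), egr (0.33), bsk (0.30) and hep (0.19), which belong to the JNK stress pathway. Jra, the partner of kay in AP-1, and yki, the Hippo pathway coactivator, fell (-0.29 and -0.19). After larval 2.5SY only Jra and yki passed, and both fell (-0.17 and -0.12), with the calls lost in 2 and 4 of the alternatives. On adult 0.25SY in middle age 6 of the 8 rose and yki fell (-0.35), where 24% of probe sets rose and 26.2% fell. Over the 27 female groups yki had the highest correlation of the list with Ilp8 (0.80).

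Of 8 genes of ecdysone output, the process that Ilp8 restrains in larvae, tor fell and sro rose after larval 0.25SY on day 1, where 22.8% of all probe sets fell and 18.4% rose. The gene tor, which encodes the receptor of prothoracicotropic hormone and is also laid down in the egg, differed by -0.61 (adjusted p = 6.2e-06), and sro, an enzyme of ecdysone synthesis, by 0.18 (adjusted p = 0.043). The call of sro was lost in 6 of the alternatives. On adult 0.25SY in middle age 6 of the 8 fell and 1 rose, where 26.2% of probe sets fell and 24% rose, with the lowest values for the synthesis genes spo (-1.54) and nvd (-1.48). The larval gland that makes ecdysone is gone in adults, and spo and nvd are known to act in the ovary.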

How the data were processed

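The authors extracted RNA from pools of whole virgin flies, hybridised it to Affymetrix Drosophila arrays and summarised the arrays with RMA (background adjustment, quantile normalisation and summarisation), which the methods describe per sex for the arrays of the later 2 ages. The deposited table holds log2 values for 18952 probe sets on 216 arrays, of which 183 control probe sets were left out here. Per the methods, 2 female and 4 male arrays were excluded there. The table holds 4 arrays in every group, so how its values were normalised relative to that exclusion is not given in the sources used here. All columns were mapped to samples by their labels. Replicates are pools from the same cohort, so p-values measure the spread between such pools, which may be partly technical.

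Probe sets were named through the platform annotation, with symbols updated: 13647 had 1 symbol, 402 several and 4720 none. A gene was read by its brightest probe set paired with it alone, and list genes without one were not analysed here. For each sex, limma 3.58.1 in R 4.3.3 was fitted to 108 arrays with a mean for each of 27 groups. Diet and age contrasts average the other factors with equal weight. P-values were adjusted by Benjamini-Hochberg over 18769 probe sets (threshold 0.05). Arrays give no counts, so their number limits the precision. The fit was tested on simulated data.

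Ilp8 and the gene lists were chosen with earlier results of these data known. Named genes were Ilp8, up to 4 members of a list with the largest differences in the contrast described, every relaxin-type receptor and insulin-like peptide found, and the genes with the highest and lowest correlations with Ilp8. A few other list members are named where a count was 6 or less. Alternatives were other normalisations, array weights, blocks, fewer ages, filters and left-out arrays. Markers of testis, muscle, eye and gut serve as checks of labels and tissue.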

Additional observations from a re-analysis of the deposited data

Results flagged for a closer look

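In 5 of 54 groups 1 array of Ilp8 stood far from the other 3 by Dixon's ratio, which chance flags in about 1 of 20 groups. In middle-aged females raised on 2.5SY and kept on 2.5SY the lowest array was at 9.018, and in old females raised on 2.5SY and kept on 1SY the lowest was at 9.086. In old males the highest arrays were at 9.191 (larval 0.25SY, adult 2.5SY), 8.092 (larval 1SY, adult 0.25SY) and 6.272 (larval 2.5SY, adult 2.5SY). The first 2 of these male arrays go against their labels in germline and testis genes.

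Some diet differences of female Ilp8 pointed opposite ways at different ages, with every array of the changed diet on 1 side of the 1SY mean. The difference between the ages was not tested. On adult 1SY the larval 0.25SY difference was -2.449 on day 1, -0.299 in middle age and 0.545 in old age. On adult 0.25SY the larval 2.5SY difference was -0.894 on day 1, -0.989 in middle age and 0.267 in old age. For females raised on 0.25SY the adult 0.25SY difference was 0.543 on day 1 and -0.72 in old age.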

How the results depend on the processing

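The number of arrays, with 4 in a group, limits the precision, and signal above background is not known. Every female difference of Ilp8 of at least 0.3 kept its sign in all 129 values under other settings, and no female difference moved by more than the SD within groups. Among these settings, the replicate block and the fit to middle and old age alone cannot change a difference. Under both, every group keeps the same 4 arrays in a balanced design. The larval 0.25SY difference on day 1 ranged over -1.99 to -1.73 and that of larval 2.5SY over -1.11 to -0.87. The adult 0.25SY difference in middle age ranged over -1.15 to -0.57. In old males the Ilp8 differences moved with the arrays that go against their labels. Without them the adult 0.25SY difference was -0.22, adult 2.5SY -0.034, larval 2.5SY -0.10, and the changes of the adult diet differences from middle to old age -0.32 (0.25SY) and -0.10 (2.5SY). With array weights the old male adult 2.5SY difference was -0.032 and its change -0.071, and with group medians they were -0.030 and -0.087, with larval 2.5SY at -0.11. Leaving out single replicates or arrays, these male differences ran over -0.25 to 0.070 (adult 0.25SY), -0.051 to 0.34 (adult 2.5SY), -0.36 to -0.10 (larval 2.5SY), -0.26 to 0.034 (larval 0.25SY), -0.022 to 0.25 (old minus middle age), -0.41 to 0.034 (change of adult 0.25SY) and -0.13 to 0.30 (change of adult 2.5SY). Centred arrays put the female excess at 3.55 in middle age and 4.07 in old age.

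Of 47 ovary genes found, 5 passed for adult 2.5SY in middle age, 14 with array weights and 1 with middle and old age alone. Without 1 replicate number, 0 to 4 passed there, 16 to 33 for adult 0.25SY in old age (32 with all), 22 to 38 for adult 2.5SY in old age (34 with all), and 9 to 17 for larval 0.25SY on day 1 (15 with all). Of 86 named gene differences, 19 lost a call under some setting and none reversed. Numbers of probe sets called moved by over 1.5 times in 145 of 438 cases in both sexes. In females larval 2.5SY on day 1 gave 1705, with 17 without replicate 1, 264 without replicate 3 and 3877 with array weights. For larval 0.25SY in middle age array weights gave 272 calls, against 5. Adult 2.5SY in middle age gave 978, with 251 to 1666 under the alternatives, and adult 2.5SY in old age gave 6534, with 4102 to 7839. Adult diets on day 1 gave 364 (84 to 2130) for 0.25SY and 68 (19 to 111) for 2.5SY. The causes were not tested. Replicate numbers do not pair the arrays (mean correlation of deviations -0.001 in females). With the replicate block larval 0.25SY on day 1 gave 7730 calls, against 7734 without it. The Ilp8 differences cannot change with this block, since every group holds 1 array of each replicate number.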
